A study of Mus musculus with 11 samples.

Results

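The 36 genes described here encode histone acetyltransferases and their subunits, histone deacetylases, and the scaffold proteins of deacetylase complexes. They were chosen by gene symbol from a written list, made with earlier results of these data known. Shares of the 36 set beside all genes are therefore descriptive. All 36 were found among the 30681 genes of the deposited count table. All 36 passed the filter on low counts, which left 16587 genes. Of the 36 genes 27 encode acetyltransferases or subunits of their complexes, and 9 encode deacetylases or their scaffolds. Beside the class I deacetylases Hdac1, Hdac2 and Hdac3, the set holds the class IIb enzymes Hdac6 and Hdac10 and the class IV enzyme Hdac11.

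Acetyltransferases transfer an acetyl group from acetyl-CoA to lysines of histone tails, which loosens chromatin and creates docking sites for bromodomain proteins. Deacetylases remove the group and mostly work inside corepressor complexes. In the hippocampus this balance is known for its part in memory formation, and mice lacking Hdac2 or Crebbp in neurons have been widely studied for it. Tada3, a subunit of the SAGA acetyltransferase complex, has been linked to the kinase DCLK3 in earlier work.

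Hippocampal RNA of adult mice (6 months) was sequenced. The 6 libraries labelled cKO are described as coming from a conditional knockout of Dclk3, and the 5 libraries labelled WT are titled as its controls. Dclk3 encodes a doublecortin-like kinase. Neither the Cre line, the cell type in which it acts, the deleted part of the gene, the strain nor whether the controls carry Cre or a floxed allele is given in the sources used here. Each library was made from the polyadenylated RNA of 1 hippocampus. The labels do not say that every library came from a different animal, and every p-value here is set against the spread of these libraries alone, which may be technical.

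Total counts ran from 24001828 to 35674490 in the labelled cKO libraries and from 29644384 to 33361557 in the WT libraries. Dclk3 itself had 20.1 ± 3.44 CPM (counts scaled to a common library size) in the labelled cKO libraries and 22.4 ± 3.31 CPM in WT (mean ± SD, n = 6 and 5). On the log2 scale the difference was -0.15 ± 0.12 (SE; adjusted p = 0.727, edgeR). The count of the whole gene does not show whether a part was deleted, so the group is called labelled cKO throughout. By Xist and the Y-linked transcripts all 6 labelled cKO libraries were male, while WT held 2 male libraries (replicates 2 and 5) and 3 female ones. A sex term therefore compares these 6 with the 2 male WT libraries, as does a fit to the male libraries alone. The dentate gyrus and CA field markers fixed for the tissue were all present, with sums of 327 to 378 CPM and 746 to 902 CPM in the labelled cKO libraries and of 311 to 428 CPM and 741 to 829.3 CPM in WT. The summed astrocyte markers did not overlap between the groups, at 7974 to 9997 CPM in the labelled cKO libraries and 6401 to 7591 CPM in WT, with higher values for 6 of 6 markers. The summed meningeal markers were 45.8 to 61.8 CPM in the labelled cKO libraries and 54.9 to 89.6 CPM in WT, with lower values for 5 of 5. Microglial markers summed to 561 to 816 CPM in the labelled cKO libraries and 560.4 to 616 CPM in WT, with higher values for 6 of 6. Thalamic markers summed to 35.9 to 47.3 CPM in the labelled cKO libraries and 45.2 to 56.8 CPM in WT, with lower values for 4 of 5 and 1 labelled cKO library inside the WT range. The part of these shifts in the results below was not tested. In a bulk sample, fewer cells of a type and less RNA per cell cannot be told apart.

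Promoter windows of Rcor1 and Hdac6 are shown because Rcor1 was the 1 gene whose groups did not overlap and Hdac6 the X-linked gene, and both are among the 5 genes of lowest p described below. Each runs from 250 bases before to 50 bases after the transcription start, 5′ to 3′ along the gene's strand, from RefSeq on build GRCm38.p6. Capitals mark the GC box GGGCGG and the CCAAT box CCAAT on either strand.
Rcor1, chr12:111039117-111039416, plus strand: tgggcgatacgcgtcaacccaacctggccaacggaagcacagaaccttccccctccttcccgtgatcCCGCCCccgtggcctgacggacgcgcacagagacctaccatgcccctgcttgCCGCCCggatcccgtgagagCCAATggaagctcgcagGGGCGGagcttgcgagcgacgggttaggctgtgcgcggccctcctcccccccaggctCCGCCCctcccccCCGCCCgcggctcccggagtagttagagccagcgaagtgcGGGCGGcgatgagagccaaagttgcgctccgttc
Hdac6, chrX:7947840-7948139, minus strand: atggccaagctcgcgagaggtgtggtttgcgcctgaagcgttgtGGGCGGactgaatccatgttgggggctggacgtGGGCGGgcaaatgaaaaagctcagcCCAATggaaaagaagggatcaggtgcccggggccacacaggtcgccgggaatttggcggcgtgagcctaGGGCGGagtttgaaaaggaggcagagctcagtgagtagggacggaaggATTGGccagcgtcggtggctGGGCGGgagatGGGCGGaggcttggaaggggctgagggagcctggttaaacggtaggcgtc
The Rcor1 window held 6 GC boxes and 1 CCAAT box, and the Hdac6 window held 5 GC boxes and 2 CCAAT boxes. No GC box overlapped a CCAAT box in these windows. The RefSeq table held windows for 29 of the 36 genes. It held none for Hdac1, Hdac3 and Hdac10, the others of the 5 genes of lowest p. The 29 genes had 39 windows, since some have more than 1 start. A GC box stood in 28 of the 39 windows (71.8%), from 22 of the 29 genes, and in 35.7% of all 32851 windows of the same length. A CCAAT box stood in 14 of the 39 windows (35.9%) and in 37.4% of all windows. The cAMP response element TGACGTCA and the TATA box TATAAA stood in 0 of the 39 windows, and in 1.79% and 13.6% of all windows. All windows were counted whether or not their gene passed the low-count filter, which all 36 genes did. Shares over expressed genes alone were not taken, so these differences are not shown to be particular to the 36.

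The level of each gene in the tissue was compared per kilobase of exon (RPKM, from the CPM and the length of all annotated exons in GENCODE M21), since a longer transcript gives more reads. Atxn7l3, an adaptor of the SAGA deubiquitinase, had the highest mean level over the 11 libraries at 72.7 RPKM. Hdac11, the sole class IV deacetylase, followed at 59.2 RPKM, and Usp22, the deubiquitinase of SAGA, at 50.8 RPKM. The library ranges of these 3 genes did not overlap with each other or with the next gene. Ncor1 at 19.7, Hdac3 at 19.4, Kat2a at 18.5, Hdac2 at 16.7 and Kat5 at 15.9 RPKM came next, and each of these overlapped its neighbour in the order. Kat7, at 14.0 RPKM, overlapped neither neighbour. The 26 genes from Tada2b (9.93 RPKM) to Supt7l (2.24 RPKM) formed a continuous run, broken only between Sin3a (7.08 RPKM) and Ep300 (5.00 RPKM). When only the exons of coding transcripts in the basic annotation were counted, a length chosen after seeing the data, Hdac11 came first at 85.9 RPKM, ahead of Atxn7l3 at 75.6 RPKM, and Hdac3 took rank 4 at 38.6 RPKM.

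Taf9 stood apart at the low end, at 0.195 RPKM, with 5 to 21 deposited counts per library. Taf9 encodes a histone-fold subunit that SAGA shares with the general factor TFIID. Of its exon bases 73.8% are shared with Ak6 on the same strand, and Ak6 had 8.66 to 13.2 CPM. How the authors assigned reads in shared exons is not given in the sources used here, so the level of Taf9 is uncertain. Exon bases are shared with another annotated gene in 16 of the 36 genes. Among them Taf10 shares 45.9% of its exon bases with Ilk, and Tada1 shares 34.9% with Pogk and a further gene, all on the opposite strand.

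**Figure D1:**
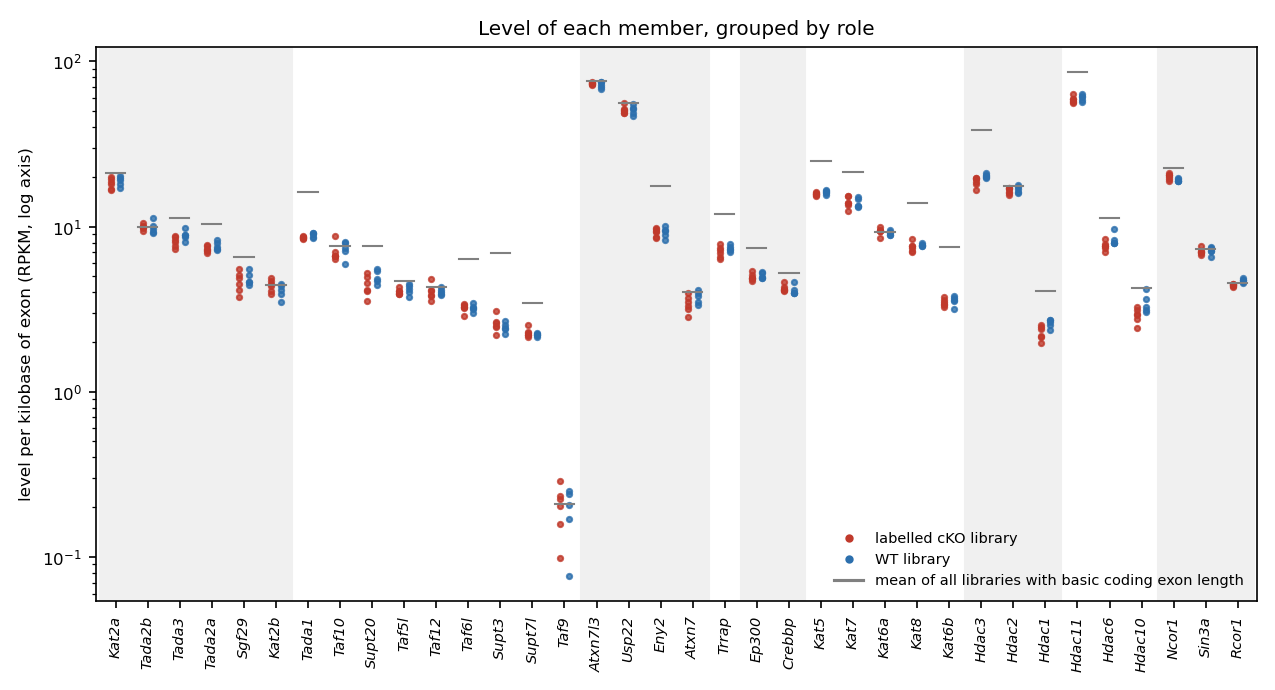
Level of each gene per kilobase of exon in every library (RPKM, log axis), grouped by role, with labelled cKO libraries as red points left of the blue WT points. The grey bar is the mean of all libraries with the basic coding exon length; Atxn7l3, Hdac11 and Usp22 lie above the other genes and Taf9 far below them.

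The main question was whether any of these genes differed between the genotypes. None did by the test over all genes. edgeR called 0 of the 36 genes at an adjusted p under 0.05 and 0 of the 16587 genes tested (0%), and the smallest adjusted p among the 36 was 0.467, for Hdac10. DESeq2 called 0 of the 36, against 61 of the 14313 genes to which it gave an adjusted p (0.426%), and limma-voom called 0. At an unadjusted p under 0.05 edgeR found 5 of the 36, or 13.9%, where 9.19% of all genes tested passed in either direction. The 5 genes were Hdac10, Hdac3, Hdac1, Rcor1 and Hdac6. All 5 had lower values in the labelled cKO libraries, where 5.35% of all genes tested passed as lower and 3.84% as higher. DESeq2 found 4 of the 35 genes to which it gave an adjusted p (11.4%), near the 10.7% of all such genes. They were Hdac10, Hdac3 and Hdac1 with lower values and Ncor1 with a higher one.

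Log2 fold changes of the 36 genes were small. They ran from -0.25 (Hdac10) to 0.11 (Kat2b), with a median of -0.037, where the median of all genes tested was -7.9e-05. There were 24 genes (66.7%) with a lower and 12 with a higher value in the labelled cKO libraries, where 50% of all genes tested had a lower one. For 32 of the 36 the 95% interval lay between -0.3 and 0.3, so that for these genes a larger difference is outside the interval. The 4 others were Hdac10, Hdac1, Supt20 and Taf9. These intervals are from the fit without a sex term, and intervals with that term are not given here. With it Atxn7 and Hdac6, both among the 32, moved further from 0, to -0.24 and -0.20. Others moved nearer, such as Tada3 at -0.037. The genes on the deacetylase side (6 deacetylases and 3 scaffolds) had a median of -0.096, with 8 of 9 lower in value and 5 of 9 at an unadjusted p under 0.05. The 27 genes on the acetyltransferase side had a median of -0.029, with 16 lower in value and 0 at that level. Of all genes tested 9.19% passed at that level. The split depended on the setting. With limma-voom 5 of the 36 passed (13.9%, where 10.2% of all genes tested did), among them Supt20 and Tada3 of the acetyltransferase side. Atxn7, of the same side, passed with a sex term, and Tada3 with the replicate number as a block. The difference between the sides was not tested.

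**Figure D2:**
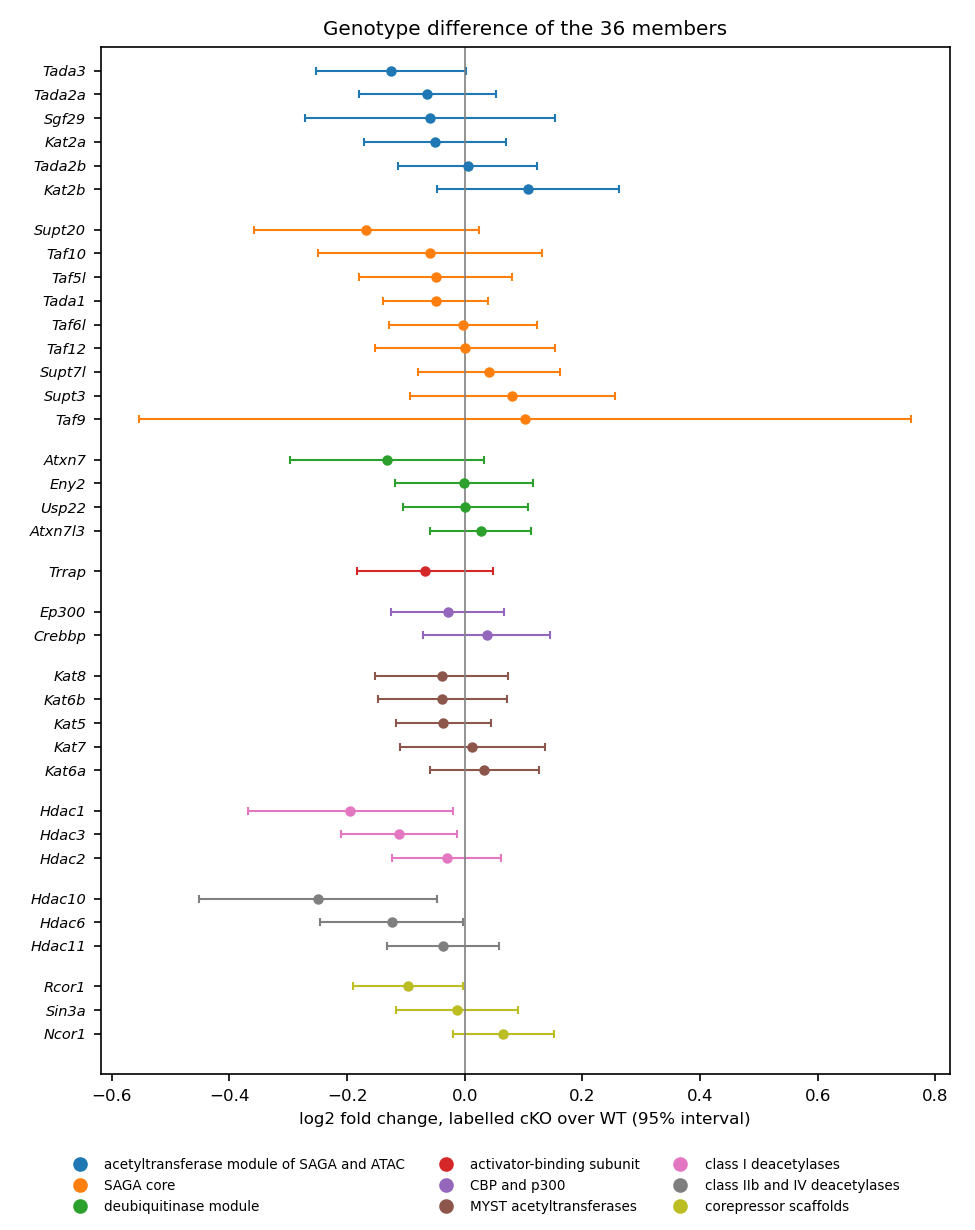
Log2 fold change of each of the 36 genes, labelled cKO over WT, with its 95% interval from the edgeR fit, coloured by role. The fit had no sex term. Most points lie close to 0; the intervals of Hdac1, Hdac3, Hdac6, Hdac10 and Rcor1 end below 0 before adjustment for multiple tests, and that of Taf9 is the widest.

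The acetyltransferase module of SAGA and its sister complex ATAC holds a catalytic subunit, Kat2a (GCN5) or its paralog Kat2b (PCAF), with Tada2a or Tada2b, Tada3 and Sgf29. Kat2a had 64.3, 58.1, 67.2, 69.2, 63.0 and 58.3 CPM in labelled cKO replicates 1 to 6, against 62.9, 59.4, 66.5, 70.5 and 68.7 CPM in WT replicates 1 to 5. Kat2b had 21.8, 22.9, 18.9, 19.9, 21.2 and 23.6 CPM in the labelled cKO libraries, against 20.1, 21.2, 19.1, 16.9 and 22.0 CPM in WT. Both genes overlapped widely between the groups, with log2 fold changes of -0.051 ± 0.06 for Kat2a and 0.11 ± 0.07 for Kat2b (SE; edgeR adjusted p = 0.832 and 0.689). The sign of Kat2b turned with a sex term (-0.015).

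Tada3, the subunit that ties the catalytic module together, had the lowest p of this module. Its level was 28.4, 29.7, 32.3, 33.8, 31.4 and 33.8 CPM in labelled cKO replicates 1 to 6, against 34.4, 31.3, 34.6, 38.2 and 33.5 CPM in WT replicates 1 to 5. Labelled cKO replicates 1 and 2 lay below every WT library and the other 4 lay within the WT range. The log2 fold change came to -0.13 ± 0.06 (SE; unadjusted p = 0.0527, adjusted p = 0.545, edgeR). It was -0.037 with a sex term, -0.035 in the 8 male libraries and -0.14 with the replicate number as a block. With 1 library left out it ran from -0.16 (without WT replicate 2) to -0.088 (without WT replicate 4). Tada2a (-0.064), Sgf29, the reader of methylated histone H3 (-0.058), and Tada2b (0.0047) overlapped between the groups, with adjusted p of 0.759, 0.902 and 0.991 (edgeR).

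The core of SAGA is built from Tada1, Supt3, Supt7l, Supt20 and the TAF-type subunits Taf5l, Taf6l, Taf9, Taf10 and Taf12, most of which carry histone folds or act as scaffold. Of these 9 genes 5 had lower and 4 higher values, with a median log2 fold change of -0.0027. Apart from Supt20 and Taf9 they lay between -0.060 (Taf10) and 0.081 (Supt3), with Supt7l at 0.041, Taf12 at 0.00095, Taf6l at -0.0027 and Taf5l at -0.050. Taf9 was at 0.10 ± 0.31 (SE), the widest error of the 36 genes. Supt20, a scaffold of the core, had 32.8, 30.8, 22.3, 25.8, 28.7 and 25.5 CPM in the labelled cKO libraries, against 29.3, 30.1, 34.6, 27.6 and 33.7 CPM in WT. Its log2 fold change came to -0.17 ± 0.09 (SE; adjusted p = 0.594, edgeR), and it was -0.11 without labelled cKO replicate 3, the lowest library. Tada1 varied little, with 35.3 ± 0.50 CPM in the labelled cKO libraries and 36.6 ± 1.32 CPM in WT (mean ± SD, n = 6 and 5). Its log2 fold change lay at -0.050 ± 0.04 (SE). Taf10 had 40.4 CPM in labelled cKO replicate 6 and 29.0 to 32.02 CPM in the other 5 labelled cKO libraries, against 27.2 to 36.8 CPM in WT.

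Usp22, Atxn7, Atxn7l3 and Eny2 form the module that removes ubiquitin from histone H2B. Usp22 averaged 248 ± 13.4 CPM in the labelled cKO libraries and 248 ± 15.2 CPM in WT, and Atxn7l3 302 ± 4.57 CPM in the labelled cKO libraries and 296 ± 13.1 CPM in WT (SD, n = 6 and 5). Eny2, which the module shares with an mRNA export complex, had 48.9 to 56.5 CPM in the labelled cKO libraries and 47.9 to 58.1 CPM in WT. Atxn7, the gene whose repeat expansion causes spinocerebellar ataxia in humans, had 31.5, 28.0, 25.1, 22.5, 26.5 and 29.4 CPM in labelled cKO replicates 1 to 6, against 26.8, 31.4, 30.2, 27.8 and 32.7 CPM in WT replicates 1 to 5. The groups overlapped, and the log2 fold change came to -0.13 ± 0.08 (SE; adjusted p = 0.628, edgeR). It was -0.082 without labelled cKO replicate 4. With a sex term it was -0.24, where the adjusted p was 0.701 (edgeR). Trrap, the large subunit through which activators reach SAGA and the TIP60 complex, had 133 to 163 CPM in the labelled cKO libraries and 145 to 164 CPM in WT, and a log2 fold change of -0.067 ± 0.05 (SE; edgeR adjusted p = 0.742).

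Crebbp and Ep300 encode CBP and p300, the coactivator acetyltransferases recruited by phosphorylated CREB and many other factors. Crebbp had 62.2, 55.6, 58.1, 56.1, 56.4 and 54.8 CPM in the labelled cKO libraries, against 53.7, 55.5, 53.6, 53.5 and 62.5 CPM in WT. Ep300 had 76.7, 69.7, 69.5, 66.6, 72.8 and 68.7 CPM in the labelled cKO libraries, against 69.5, 75.1, 70.0, 70.4 and 75.4 CPM in WT. Labelled cKO replicate 1 and WT replicate 5 were the highest of their group for both genes. The log2 fold changes were 0.037 ± 0.05 for Crebbp and -0.029 ± 0.05 for Ep300 (SE; adjusted p = 0.872 and 0.892, edgeR), with 95% intervals from -0.070 to 0.14 and from -0.13 to 0.068. The value of Crebbp was 0.080 without WT replicate 5, and its sign turned with a sex term (-0.045) and in the 8 male libraries (-0.043).

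The MYST family holds Kat5 (TIP60), Kat6a and Kat6b (MOZ and MORF), Kat7 (HBO1) and Kat8 (MOF, the main enzyme for lysine 16 of histone H4). Of these 5 genes 3 had lower and 2 higher values, and log2 fold changes lay between -0.039 (Kat8) and 0.033 (Kat6a). Kat5 had the narrowest interval of the 36 genes, from -0.12 to 0.044. Its level was 55.1 ± 0.97 CPM in the labelled cKO libraries and 56.6 ± 1.37 CPM in WT (SD, n = 6 and 5; edgeR adjusted p = 0.821). Kat7 spread more widely, from 69.1 to 84.9 CPM in the labelled cKO libraries and from 72.9 to 83.8 CPM in WT.

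Hdac1, Hdac2 and Hdac3 are class I deacetylases, which work in the nucleus. Hdac1 and Hdac2 form the catalytic core of the SIN3, NuRD and CoREST complexes, and Hdac3 that of the NCoR complex. All 3 had lower values in the labelled cKO libraries. Hdac1 (ENSMUSG00000028800, chromosome 4, 129516104 to 129542713, minus strand, mm10) had 8.22, 8.44, 6.77, 7.36, 8.72 and 7.46 CPM in labelled cKO replicates 1 to 6, against 8.69, 9.08, 9.42, 9.41 and 8.11 CPM in WT replicates 1 to 5. Labelled cKO replicates 3, 4 and 6 were below every WT library, and the other 3 lay within the WT range. The log2 fold change came to -0.19 ± 0.08 (SE; unadjusted p = 0.0311, edgeR adjusted p = 0.501), on 208 to 321 deposited counts per library. It was -0.14 with a sex term and -0.13 in the 8 male libraries.

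Hdac3 (ENSMUSG00000024454, chromosome 18, 37935844 to 37955016, minus strand, mm10) had 78.6, 75.1, 79.4, 73.7, 79.6 and 67.7 CPM in labelled cKO replicates 1 to 6, against 79.4, 80.4, 82.6, 81.5 and 85.0 CPM in WT replicates 1 to 5. Apart from labelled cKO replicate 5, every labelled cKO library lay below the lowest WT library, replicate 1, labelled cKO replicate 3 by less than the rounding shows. The log2 fold change came to -0.11 ± 0.05 (SE; unadjusted p = 0.0285, edgeR adjusted p = 0.496), -0.13 with a sex term and -0.082 without labelled cKO replicate 6. Hdac2 (ENSMUSG00000019777, chromosome 10, 36974544 to 37001889, plus strand, mm10) had 71.7, 69.5, 76.3, 77.0, 72.8 and 75.7 CPM in the labelled cKO libraries, against 72.6, 75.3, 77.8, 79.5 and 71.8 CPM in WT. Its groups overlapped over most of their range, with a log2 fold change of -0.030 ± 0.04 (SE; edgeR adjusted p = 0.880) and a 95% interval from -0.12 to 0.062. The sign of Hdac2 turned with a sex term (0.0057).

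Hdac6 and Hdac10 are class IIb enzymes that act largely in the cytoplasm, Hdac6 on tubulin and Hdac10 on polyamines. Hdac10 (ENSMUSG00000062906, chromosome 15, 89123307 to 89128700, minus strand, mm10) had 10.96, 10.5, 8.17, 9.31, 9.97 and 9.89 CPM in labelled cKO replicates 1 to 6, against 10.3, 10.96, 12.3, 10.5 and 14.2 CPM in WT replicates 1 to 5. Labelled cKO replicates 3 to 6 were below every WT library, and WT replicate 5 was above all others. The log2 fold change came to -0.25 ± 0.10 (SE; unadjusted p = 0.0183, edgeR adjusted p = 0.467), the largest in size among the 36 genes. It was -0.17 without WT replicate 5, -0.36 with a sex term and -0.36 in the 8 male libraries. The male WT libraries are replicates 2 and 5 only.

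Hdac6 (ENSMUSG00000031161, chromosome X, 7930120 to 7947889, minus strand, mm10) is the sole X-linked gene of the 36. Its level was 48.5, 44.3, 44.4, 43.4, 45.7 and 41.0 CPM in labelled cKO replicates 1 to 6, against 46.4, 46.2, 48.0, 46.3 and 55.9 CPM in WT replicates 1 to 5. Apart from labelled cKO replicate 1, every labelled cKO library lay below every WT library, and WT replicate 5, a male library, was far above the other 4. The log2 fold change came to -0.12 ± 0.06 (SE; unadjusted p = 0.0452, edgeR adjusted p = 0.529), and it was -0.071 without WT replicate 5. It was -0.20 with a sex term, where the adjusted p was 0.701 (edgeR), and -0.19 in the 8 male libraries, where WT replicate 5 is 1 of the 2 WT libraries. Hdac11 had 225 ± 10.6 CPM in the labelled cKO libraries and 231 ± 9.57 CPM in WT (mean ± SD, n = 6 and 5). The difference in log2 was -0.037 ± 0.04 (SE; adjusted p = 0.852, edgeR).

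Rcor1, Ncor1 and Sin3a encode the scaffolds that give the CoREST, NCoR and SIN3 complexes their names. Rcor1 (ENSMUSG00000037896, chromosome 12, 111039351 to 111115901, plus strand, mm10) had 25.4, 25.3, 24.7, 24.4, 25.5 and 25.0 CPM in labelled cKO replicates 1 to 6, against 26.0, 26.8, 26.3, 27.2 and 27.7 CPM in WT replicates 1 to 5. It was the 1 gene of the 36 (2.78%) whose groups did not overlap, with every labelled cKO library below every WT library. Among all genes tested 0.512% had this arrangement in this direction and 0.404% in the other. The log2 fold change came to -0.096 ± 0.04 (SE; unadjusted p = 0.0433, edgeR adjusted p = 0.525). It stayed between -0.11 and -0.087 when any 1 library was left out, and was -0.12 with a sex term and in the 8 male libraries. The unadjusted p of Rcor1 was 0.0660 with a sex term (edgeR) and 0.0553 with DESeq2. With 1 library left out, Rcor1 passed at an unadjusted p under 0.05 only without WT replicate 1 or 3 (edgeR). Ncor1 had 257 ± 10.1 CPM in the labelled cKO libraries and 246 ± 4.85 CPM in WT, and Sin3a 38.0 ± 1.58 CPM in the labelled cKO libraries and 38.3 ± 2.14 CPM in WT (SD, n = 6 and 5). Their log2 fold changes were 0.066 ± 0.04 and -0.014 ± 0.05 (SE; adjusted p = 0.644 and 0.962, edgeR).

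**Figure D3:**
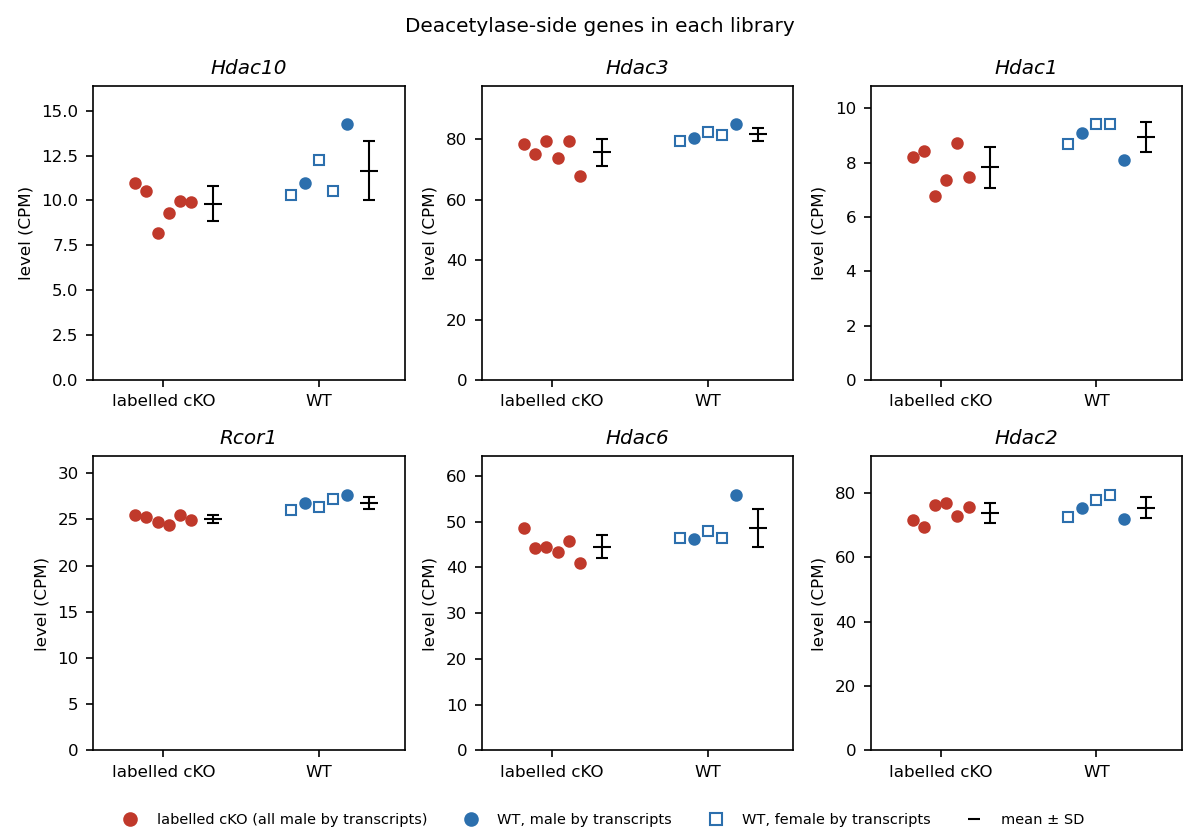
Level in CPM of 6 deacetylase-side genes in each library, labelled cKO left of WT, with the mean ± SD beside the points; open squares are WT libraries that are female by their transcripts. Rcor1 does not overlap between the groups, while Hdac6 and Hdac10 reach their highest values, 55.9 and 14.2 CPM, in WT replicate 5.

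The count of 5 genes depended on single libraries of both groups. Without labelled cKO replicate 3, 4 or 6 edgeR found 2 of the 36 genes (5.56%) at an unadjusted p under 0.05, where 7.61%, 8.18% and 8.77% of all genes tested passed. It found 3 (8.33%) without labelled cKO replicate 5, where 9.08% of all genes tested passed, and 3 without WT replicate 3, where 6.84% passed. Without WT replicate 5 it found 1 (2.78%), Hdac1, where 6.92% of all genes tested passed. With a sex term it found 3 (8.33%), Hdac6, Hdac10 and Atxn7, where 6.95% of all genes tested passed in either direction. In the 8 male libraries it found the same 3 genes (8.33%), where 5.58% of all genes tested passed. Both of these settings rest on the same 2 male WT libraries, so they are not separate checks. With the replicate number as a block it found 2 (5.56%), Hdac10 and Tada3, where 8.03% of all genes tested passed. No setting gave an adjusted p under 0.05 for any of the 36 genes.

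**Figure D4:**
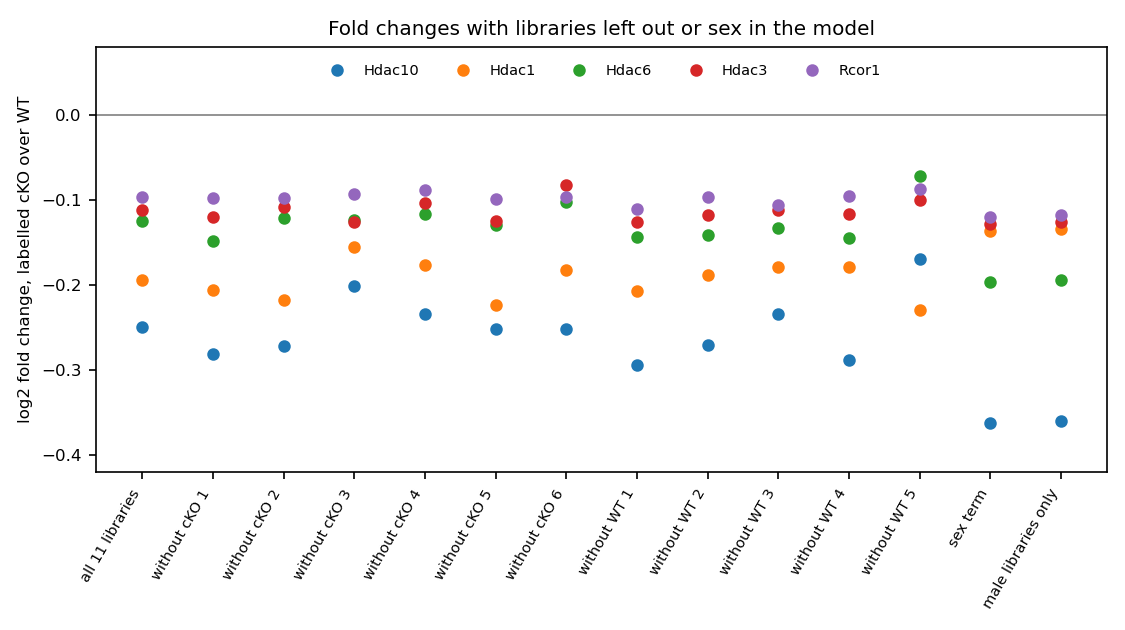
Log2 fold change, labelled cKO over WT, of Hdac10, Hdac1, Hdac6, Hdac3 and Rcor1 with all 11 libraries, with each library left out, with a sex term and in the male libraries. All points lie below 0; Hdac6 and Hdac10 each come closest to 0 without WT replicate 5, at -0.071 and -0.17, as does Rcor1 at -0.087.

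Several of the genes are paralogs that take the same place in a complex, so their ratio per kilobase of exon was taken within each library, where scaling between libraries cancels. These ratios are given without a test. Hdac2 exceeded Hdac1 by a ratio of 6.72, 6.34, 8.68, 8.06, 6.43 and 7.81 in labelled cKO replicates 1 to 6, against 6.43, 6.38, 6.36, 6.501 and 6.82 in WT replicates 1 to 5. The WT libraries lay close together, labelled cKO replicates 3, 4 and 6 lay above them all, and the other 3 lay within or at the edge of the WT range. The mean ratio over the 11 libraries was 6.96, or 4.35 with the basic coding exon length.

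Kat2a exceeded Kat2b by a ratio of 4.19 ± 0.63 in the labelled cKO libraries and 4.67 ± 0.73 in WT (SD, n = 6 and 5). Ep300 exceeded Crebbp in all 11 libraries, with ratios of 1.13 to 1.22 in the labelled cKO libraries and 1.145 to 1.28 in WT. The mean over all libraries was 1.20, or 1.43 with the basic coding exon length. Kat6a exceeded Kat6b by 2.70 ± 0.12 in the labelled cKO libraries and 2.58 ± 0.23 in WT (SD, n = 6 and 5), but the mean over all libraries was 2.65 by all exons and 1.249 by the basic coding exons. Each of these ratios overlapped between the groups.

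**Figure D5:**
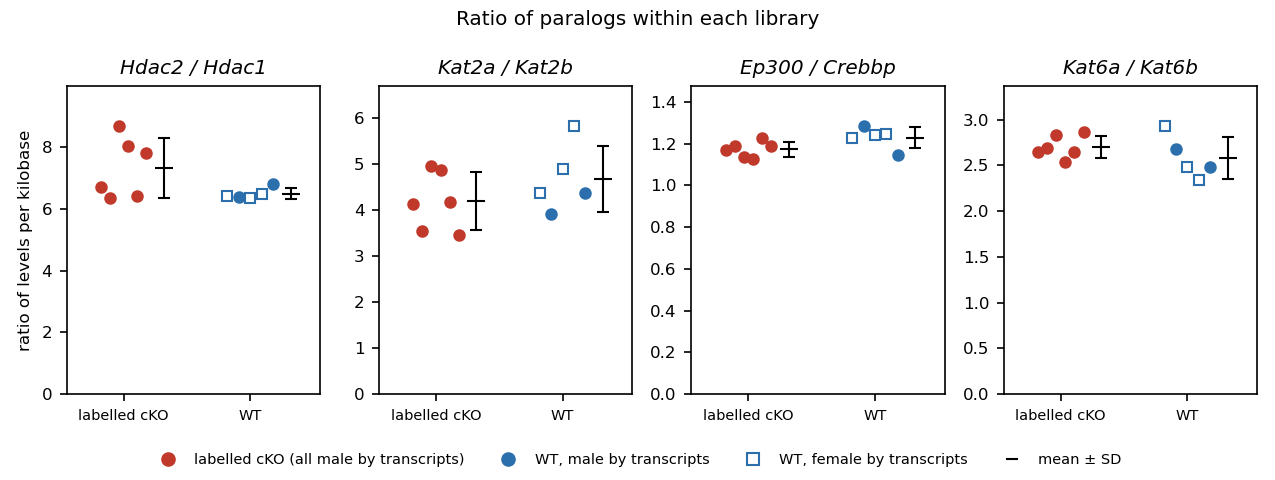
Ratio of the levels per kilobase of 4 paralog pairs within each library, labelled cKO left of WT, with the mean ± SD beside the points. The Hdac2 to Hdac1 ratio reaches 8.68 in labelled cKO replicate 3 and stays between 6.36 and 6.82 in WT; all 4 pairs overlap between the groups.

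A further 98 genes of the same complexes and of acetyl-lysine reading and acetyl-CoA supply were taken from lists, of which 97 were tested. edgeR called 0 of the 97 at an adjusted p under 0.05, with a smallest adjusted p of 0.349. At an unadjusted p under 0.05 there were 5 lower and 2 higher genes, beside the 5.35% lower and 3.84% higher among all genes tested. Their median log2 fold change was -0.0088, with 57 lower and 40 higher in value, where 50% of all genes tested had a lower value. All values of these partner genes, X-linked ones included, are given without a sex term, and WT held 3 female libraries.

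In the TIP60 complex 12 of 15 genes had lower values, with a median of -0.014. Mrgbp, a small subunit of TIP60, had the lowest p of all 97 genes, with 15.2 ± 1.96 CPM in the labelled cKO libraries and 19.0 ± 1.80 CPM in WT (mean ± SD, n = 6 and 5). On the log2 scale the difference was -0.32 ± 0.09 (SE; adjusted p = 0.349, edgeR). Ing3, another of its subunits, was at -0.14 ± 0.06 (log2 ± SE), and Brd8, its bromodomain subunit, at -0.063 ± 0.05. Brpf1, the scaffold of the MOZ and MORF complexes, had 35.7 ± 1.22 CPM in the labelled cKO libraries and 39.7 ± 1.82 CPM in WT. The difference in log2 was -0.15 ± 0.05 (SE; adjusted p = 0.404, edgeR). Among the 17 MYST partners 11 were lower in value, and Phf20, a subunit of the Kat8 complex NSL, was at 0.093 ± 0.04 (log2 ± SE). Mcrs1, of the same complex, was at -0.096 ± 0.05.

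The ATAC genes, partners of Kat2a and Kat2b in the other complex, were lower in value in 6 of 6 cases with a median of -0.080, and 0 of them reached an unadjusted p under 0.05. Yeats2, a histone reader, was at -0.12 ± 0.08, the acetyltransferase Kat14 at -0.093 ± 0.06 and Wdr5 at -0.067 ± 0.06 (log2 ± SE). Atxn7l2, a paralog of Atxn7, had 21.2 ± 2.83 CPM in the labelled cKO libraries and 25.8 ± 3.70 CPM in WT (mean ± SD, n = 6 and 5). On the log2 scale the difference was -0.28 ± 0.10 (SE; adjusted p = 0.435, edgeR). The other 6 further SAGA genes did not reach an unadjusted p under 0.05, among them Usp27x (0.089 ± 0.06), a paralog of Usp22, and Taf9b (0.043 ± 0.05), a paralog of Taf9.

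Partners of the deacetylases did not share a direction. In the SIN3 complex 8 of 14 tested genes were lower in value (median -0.0026) and in the NuRD complex 4 of 10 (median 0.015), with 0 at an unadjusted p under 0.05 in either. The histone chaperones Rbbp4 (0.072 ± 0.04) and Rbbp7 (0.072 ± 0.06) and the SIN3 subunit Sap30l (-0.10 ± 0.06) had the lowest p of the SIN3 list, and Chd3 (0.076 ± 0.05), Mta2 (-0.048 ± 0.04) and Mbd2 (0.059 ± 0.06) those of the NuRD list (log2 ± SE). In the CoREST complex 5 of 8 were lower, led by Rcor2, the paralog of Rcor1, with 11.1 ± 0.82 CPM in the labelled cKO libraries and 12.6 ± 0.75 CPM in WT (mean ± SD, n = 6 and 5). The difference in log2 was -0.19 ± 0.07 (SE; adjusted p = 0.446, edgeR). In the NCoR complex Tbl1xr1, which exchanges corepressors for coactivators, had 71.2 ± 4.27 CPM in the labelled cKO libraries and 64.6 ± 3.37 CPM in WT. On the log2 scale this was 0.14 ± 0.05 (SE; adjusted p = 0.435, edgeR). Gps2 (-0.071 ± 0.07) and Tbl1x (-0.017 ± 0.06) followed in that list, as did Zmym3 (-0.14 ± 0.07) and Zmym2 (0.093 ± 0.05) in the CoREST list (log2 ± SE). The MiDAC complex had lower values for 3 of 3 genes, Mideas (-0.082 ± 0.06), Trerf1 (-0.11 ± 0.08) and Dnttip1 (-0.034 ± 0.07). Outside these complexes the acetyltransferase Hat1 (0.050 ± 0.06) and the class I deacetylase Hdac8 (0.051 ± 0.07) had slightly higher values and did not pass the test (edgeR).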

How the data were processed

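Per the labels' protocols, the authors prepared polyadenylated RNA of 1 hippocampus per library with a strand-marking (dUTP) kit. The build mm10 and bcl2fastq 2.17.1.14 come from the submitters' processing notes. In the sources used here the aligner, the counting tool and its strand setting are not given. Raw counts per gene by Ensembl ID are what the authors deposited. Of these IDs 30566 of 30681 matched a symbol. Mideas was found as Elmsan1 in GENCODE M21 (mm10), and Sinhcaf failed the filter.

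Groups were taken from the titles. Between replicates the chi-square per degree of freedom was at least 5.70, more than counting noise alone would give. Each library was counted as a separate sample, though this spread does not show that they came from different animals. CPM use the TMM-scaled library size and RPKM also the exon length, both computed here. Counts were filtered with filterByExpr and scaled by TMM. The test was edgeR 4.0.16's 2-sided quasi-likelihood F test (robust), with Benjamini-Hochberg adjustment over all 16587 genes and a threshold of 0.05. Intervals are at 95%. The common biological coefficient of variation was 9.56%. Alternatives were RLE scaling, no filter, DESeq2 1.42.0, limma-voom (limma 3.58.1), a replicate block, a sex term, the male libraries and each library left out, in R 4.3.3. The tests were tried on simulated counts. All 36 genes are named. Values in every library are given for the paralog pairs Kat2a and Kat2b, Crebbp and Ep300, and Hdac1 and Hdac2, for genes with an unadjusted p under 0.05, and for Tada3, Supt20 and Atxn7, which were added after their values were seen. Of each partner list the up to 3 genes of smallest p are named. The members and lists were chosen with earlier results of these data known.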

Additional observations from a re-analysis of the deposited data

Results flagged for a closer look

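In 72 groups of libraries (36 genes in the 2 genotypes) 4 had a library far from the others by Dixon's test at 95%, where chance flags about 1 in 20. Taf10 had 40.4 CPM in labelled cKO replicate 6, against 29.0 to 32.02 CPM in the other 5 labelled cKO libraries. Usp22 had 273 CPM in labelled cKO replicate 4, against 237 to 249.6 CPM in the other 5. Crebbp had 62.5 CPM in WT replicate 5, where the other 4 WT libraries had 53.5 to 55.5 CPM. Hdac6 had 55.9 CPM in WT replicate 5, against 46.2 to 48.0 CPM in the other 4.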

How the results depend on the processing

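No gene of the 36 was called under any of the 18 alternatives, and the median log2 fold change of the 36 stayed between -0.040 and -0.024. The count of genes called over the whole table was 0 in the 11 libraries with edgeR, 61 with DESeq2, 3 without the low-count filter, and 0 to 14 when 1 library was left out. The count of the 36 at an unadjusted p under 0.05 was 5. It was 3 (8.33%) with RLE scaling, where 9.36% of all genes tested passed, 3 without the filter, where 7.18% passed, 3 with a sex term, 3 in the male libraries, 2 with the replicate block, and 1 (without WT replicate 5) to 6 (16.7%, without labelled cKO replicate 1, where 12.6% of all genes tested passed) when 1 library was left out. The replicate numbers were not treated as pairs in the main fit. Correlations of same-numbered libraries after removing the group means ran from -0.55 to 0.65 over the 5 shared numbers. These values do not settle whether the numbers mark pairs. The block called 0 genes, as did the fit without it.

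There were 21 genes that kept their sign under every alternative and 15 that did not, and none of the 15 was called under any. The sign turned with a sex term, and in the male libraries, for Kat2b (-0.015 and -0.012), Tada2a (0.019 and 0.022), Tada2b (-0.039 and -0.037), Tada1 (0.0077 and 0.010), Taf10 (0.10 and 0.11), Taf12 (-0.012 and -0.0094), Atxn7l3 (-0.034 and -0.031), Crebbp (-0.045 and -0.043), Hdac2 (0.0057 and 0.0080) and Sin3a (0.057 and 0.060). It turned for Taf6l with RLE scaling (0.0016), no filter (0.0065) and DESeq2 (0.0021). For Eny2 it turned with the same 3 (0.0029, 0.0073 and 0.0039) and the replicate block (0.023). For Taf12 it turned with limma-voom (-0.027) and the block (-0.058), and with limma-voom for Taf9 (-0.014) and Usp22 (-0.0064). With 1 library left out, values crossed 0 for Eny2 (-0.041 to 0.028), Kat7 (-0.014 to 0.047), Sin3a (-0.045 to 0.0047), Tada2b (-0.025 to 0.055), Taf12 (-0.056 to 0.036), Taf6l (-0.030 to 0.031), Taf9 (-0.092 to 0.25) and Usp22 (-0.027 to 0.027). The cause was not tested. Taf9 had 5 to 21 counts per library, and DESeq2 gave it no adjusted p.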

Other observations

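Genes that supply acetyl-CoA, the donor of the acetyl group, had higher values in 4 of 4 cases (Acly, Acss2, Slc25a1 and Pdha1), with a median log2 fold change of 0.061, and 0 of them passed the test (edgeR). Pdha1, an X-linked subunit of pyruvate dehydrogenase, had 256 ± 10.3 CPM in the labelled cKO libraries and 241 ± 7.62 CPM in WT (mean ± SD, n = 6 and 5). On the log2 scale the difference was 0.087 ± 0.04 (SE; adjusted p = 0.549, edgeR), beside 0.074 ± 0.07 for Slc25a1 and 0.048 ± 0.07 for Acss2. Among 8 genes of acetyl-lysine readers, the bromodomain and YEATS proteins, 3 were lower and 5 higher in value, with a median of 0.015 and 0 at an unadjusted p under 0.05. Brd9 (-0.076 ± 0.05), Brd2 (0.036 ± 0.04) and Brd3 (-0.044 ± 0.05) had the lowest p of these readers (log2 ± SE).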
